A study of Mus musculus with 4 samples.

Results

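The genes described here are 10 that encode collagens and other proteins of the matrix laid down in scars: Col1a1, Col1a2, Col3a1, Col4a1, Col4a2, Fn1, Postn, Tnc, Lox and Sparc. They were a fixed list matched by symbol, and all 10 were found, each with 1 Ensembl gene identifier, among 55357 genes in the count matrices. Their transcripts were read in single cells of the injured brain hemisphere of wild-type mice after ischemic stroke. Hydrogel microspheres (MAPS) were placed in the infarct cavity on day 5 after stroke and the hemisphere was taken on day 14. The 4 groups, with 1 library each, were IL-4 C1q EV+MAPS, the related IL-1a TNFa C1q EV+MAPS, UT EV+MAPS and MAPS. The first 3 carried extracellular vesicles (EVs) of astrocytes on the microspheres and are written IL-4/C1q EV, IL-1a/TNFa/C1q EV and UT EV. Those of UT EV came from untreated astrocytes. MAPS had microspheres alone, and all 4 groups shared the stroke and the implant. The number of animals behind a library is not stated in the labels, and healthy mice were not analysed here.

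After an infarct, fibroblasts gather in and around the lesion and build a fibrotic core of fibrillar collagen, while astrocytes form a border around it. Type I and type III collagens make the fibrils. Type IV collagen is the sheet of the vascular basement membrane, made by endothelial cells and the mural cells that wrap vessels. Fibronectin is an adhesive glycoprotein deposited early in wounds. Periostin, tenascin-C and SPARC are matricellular proteins, which bind matrix and cells without forming fibrils, and lysyl oxidase crosslinks collagen and elastin.

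The start-site sequences of 7 of the 10 genes were matched in RefSeq's mouse promoter windows of build GRCm38.p6, which run from 250 bases before to 50 after each of 9 transcript starts, and Col1a1, Fn1 and Lox were not matched. The counts refer to another build (GRCm39), so the coordinates place the sequences only. These stretches are shown because they hold named promoter letters close to the starts of genes the results turn on. Capitals mark a match to CCAAT in the Col1a2 stretch (chr6:4505498-4505617, plus strand), to TATAAA in the Postn stretch (chr3:54361047-54361106, plus strand), and to GGGCGG in the stretch where the first transcribed bases of Col4a1 and Col4a2, which are read in opposite directions, overlap (chr8:11312805-11312826, plus strand).
Col1a2: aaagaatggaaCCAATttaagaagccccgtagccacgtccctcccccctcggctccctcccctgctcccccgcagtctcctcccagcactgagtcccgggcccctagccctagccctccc
Postn: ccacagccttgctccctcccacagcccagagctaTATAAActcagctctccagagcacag
Col4a1/Col4a2 overlap: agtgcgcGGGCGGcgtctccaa
The TATAAA letters began 26 bases before the Postn start shown, and the other matched start of this gene had no such match. Further matches began 117 bases before the Col3a1 start and 126 bases before a Tnc start. Searched on both strands of the 250 bases before the start, TATAAA stood in 12.4% of the 32851 mouse windows, CCAAT in 33.8% and GGGCGG in 32.7%. The GGGCGG marked in the Col4a1/Col4a2 overlap lies after both starts, outside the part searched. A match describes letters only.

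Depth and library set the frame for every value below. Kept cells numbered 13576 in IL-4/C1q EV, 14221 in IL-1a/TNFa/C1q EV, 12302 in UT EV and 13166 in MAPS, with 42657294 to 74233586 UMIs (unique molecular identifiers, each 1 counted transcript) per library. MAPS stood apart: the median UMIs per barcode were 2462 to 2663 in the EV libraries and 4541 in MAPS, the median mitochondrial share was 0.546 to 0.573% against 1.43% in MAPS, and most of its microglia-like, astrocyte-like, T and endothelial-like cells formed clusters of their own. Barcodes of IL-1a/TNFa/C1q EV began at 1233 UMIs and those of the other libraries at 500. Any pair of libraries shared 43 to 64 cell barcodes, at most 0.439% of a library's barcodes. With 1 library per group no replicate spread can be measured and no test was made. Group and library (with its animals and its run) cannot be told apart, intervals are 95% and cover counting error only, and "higher" or "lower by 1.5-fold" describes a pair of libraries.

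Fibroblast-like cells held most transcripts of the fibrillar collagen genes. They formed 1 cluster of 312 cells out of 53265, led by Lum, Dcn, Col1a1 and Col3a1, with the 10 genes left out of the variable genes used for clustering. It held 121 cells of IL-4/C1q EV, 56 of IL-1a/TNFa/C1q EV, 64 of UT EV and 71 of MAPS, with median UMIs per cell of 4708, 4050.5, 2315.5 and 9109. All 7 fibroblast markers (Dcn, Lum, Islr, Fbln1, Slc6a13, Mfap4 and Serpinf1) were detected in each library. Their summed level was 6893 UMIs per 1000000 UMIs of the class (CPM) in IL-4/C1q EV, 6681 in IL-1a/TNFa/C1q EV, 6476 in UT EV and 14332 in MAPS. The 3 EV libraries lay close together in these markers, and MAPS lay above all of them. Fibroblast-like cells carried 92.8% of the Col1a1 UMIs of the IL-4/C1q EV library, 81.0% in IL-1a/TNFa/C1q EV, 89.3% in UT EV and 84.2% in MAPS. For Col3a1 the shares were 93.5%, 74.7%, 84.1% and 87.2% in the same order, and for Col1a2 87.7%, 67.3%, 83.2% and 81.2%. In MAPS, much of the remaining Col1a1 was in single cells of other classes. There 1 cell in the neuroblast class held 472 of that class's 485 Col1a1 UMIs, and 1 T cell held 90 of 106. Another 216 MAPS UMIs were spread over 195 astrocyte-like cells, with at most 3 in a cell. In UT EV, astrocyte-like cells held 28 UMIs in 24 cells.

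The other genes spread differently. Endothelial-like cells held most of the type IV collagen and fibronectin UMIs of the EV libraries: 62.4%, 65.7% and 59.5% for Col4a1 in IL-4/C1q EV, IL-1a/TNFa/C1q EV and UT EV, against 28.1% in MAPS, and 58.9%, 56.3% and 59.0% for Fn1 against 12.1% in MAPS. Endothelial-like cells numbered 1521, 993 and 1265 in the EV libraries and 149 in MAPS, where fibroblast-like cells held 35.8% of the Col4a1 UMIs. Most Fn1 UMIs of MAPS lay in microglia-like cells. Microglia-like cells held the largest Sparc share in all 4 libraries, with 45.9%, 49.1%, 52.4% and 82.0%. Astrocyte-like cells held 41.7%, 72.7%, 70.6% and 81.4% of the few Tnc UMIs. For Postn, fibroblast-like cells held 45.9%, 18.5%, 33.3% and 28.2%, and microglia-like cells 10.5%, 7.41%, 18.2% and 63.4%. For Lox these shares were 65.3%, 13.9%, 44.6% and 39.7% in fibroblast-like cells, and 18.2%, 51.3%, 26.8% and 52.2% in microglia-like cells.

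**Figure D1:**
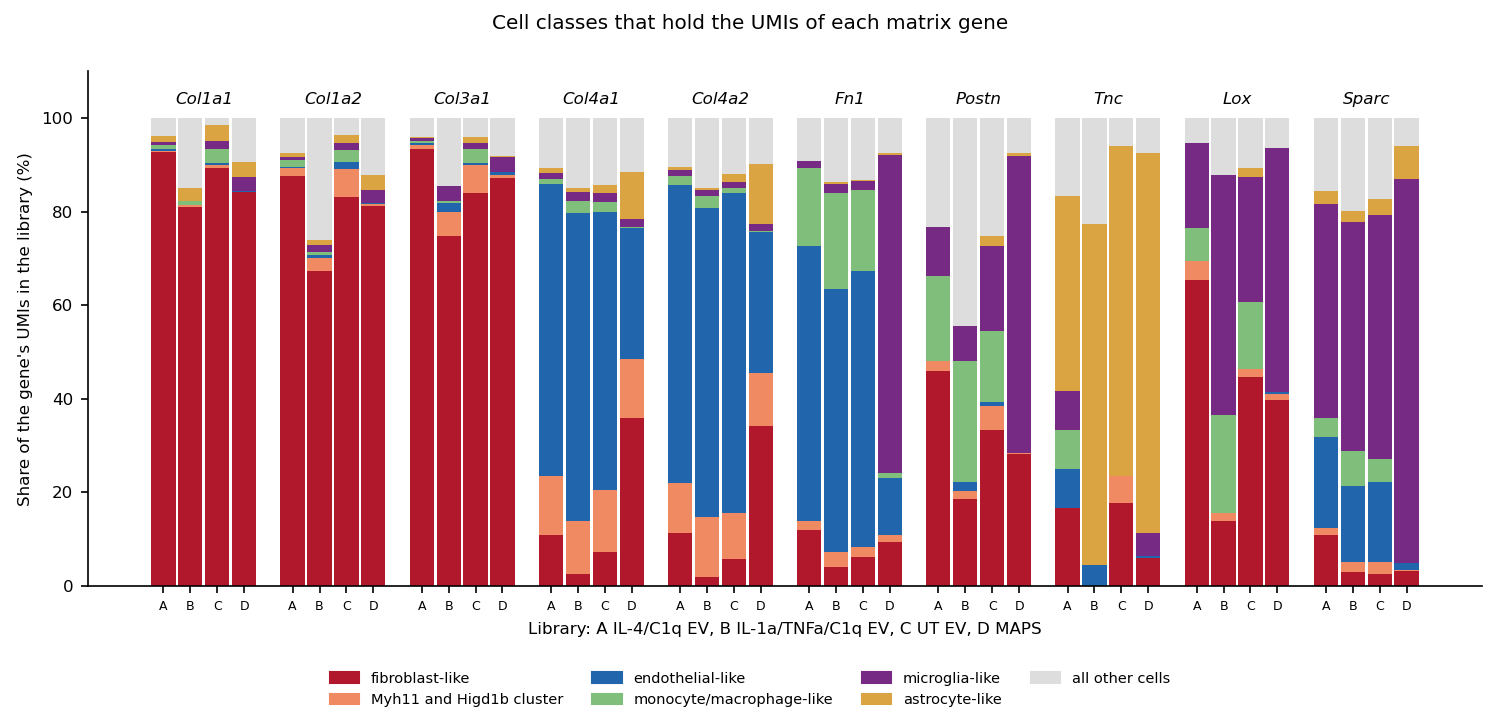
Share of each gene's UMIs (%, y axis) held by each cell class, with 4 bars per gene for IL-4/C1q EV, IL-1a/TNFa/C1q EV, UT EV and MAPS. The bars of Col1a1, Col1a2 and Col3a1 are mostly fibroblast-like, from 67.3 to 93.5%, whereas endothelial-like cells fill most of the Col4a1, Col4a2 and Fn1 bars of the EV libraries and microglia-like cells most of the Sparc bar of MAPS.

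Col1a1 and Col1a2 encode the chains of type I collagen, and Col3a1 the chain of type III. In fibroblast-like cells Col1a1 stood at 2823 CPM (2695 to 2955) with IL-4/C1q EV, 1814 (1654 to 1986) with IL-1a/TNFa/C1q EV, 2901 (2690 to 3124) with UT EV and 8861 (8634 to 9093) with MAPS. IL-4/C1q EV and UT EV overlapped, IL-1a/TNFa/C1q EV was the lowest and MAPS the highest. Col1a2 was likewise lowest in IL-1a/TNFa/C1q EV and highest in MAPS, with 2792 CPM in IL-4/C1q EV, 1857 in IL-1a/TNFa/C1q EV, 2773 in UT EV and 9836 in MAPS. Col3a1 had 2050 CPM (1942 to 2164) with IL-4/C1q EV, 720 (620 to 831) with IL-1a/TNFa/C1q EV, 1047 (922 to 1184) with UT EV and 5338 (5162 to 5518) with MAPS. Unlike the type I genes, it separated IL-4/C1q EV from UT EV. A Col1a1 UMI was found in 78.5% of fibroblast-like cells of IL-4/C1q EV, 82.1% of IL-1a/TNFa/C1q EV, 64.1% of UT EV and 93.0% of MAPS. Thinning to 1000 UMIs kept only cells with at least that many (99 of 121, 56 of 56, 47 of 64 and 69 of 71). A Col1a1 UMI was left in 65.7%, 48.2%, 61.7% and 82.6% of those, so the thinned and unthinned shares cover different cells. In T cells, which do not make it, the unthinned share was 0% in the 3 EV libraries and 1.19% in MAPS, at median depths of 1841.5, 1769.5, 1989 and 4270 UMIs.

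A small number of cells held a large share of these transcripts. The 10 fibroblast-like cells with the most Col1a1 UMIs held 49.5% of them in IL-4/C1q EV, 66.7% in IL-1a/TNFa/C1q EV, 82.7% in UT EV and 71.5% in MAPS. The top cell had 311 of 1824 UMIs in IL-4/C1q EV, 87 of 469 in IL-1a/TNFa/C1q EV, 265 of 701 in UT EV and 1120 of 5784 in MAPS. The median cell had 4, 3, 1 and 17 Col1a1 UMIs, and 2, 0, 1 and 16 cells had more than 100. Without its top cell each library had 2399 CPM in IL-4/C1q EV, 1554 in IL-1a/TNFa/C1q EV, 1966 in UT EV and 7499 in MAPS. The level of UT EV rested on 1 cell more than that of the other libraries. For Col3a1, 1 cell of IL-4/C1q EV held 488 of 1325 UMIs, and without the top cells the levels were 1327, 557, 825 and 4923 CPM.

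**Figure D2:**
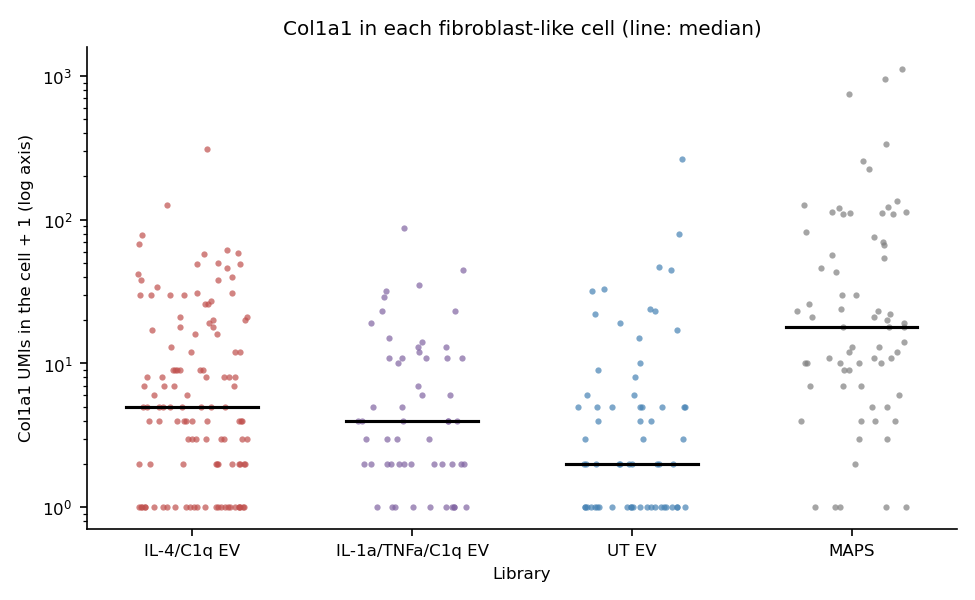
Col1a1 UMIs in each fibroblast-like cell plus 1 (log axis) for the 4 libraries, with 1 point per cell and a line at the median. Most cells of the EV libraries hold few UMIs (medians of 4, 3 and 1) and a single UT EV cell stands at 265, while 16 of the 71 MAPS cells exceed 100.

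Col4a1 and Col4a2 encode the chains of the main type IV collagen. In fibroblast-like cells Col4a1 stood at 232 CPM (197 to 272) with IL-4/C1q EV, 65.8 (38.3 to 105) with IL-1a/TNFa/C1q EV, 323 (255 to 403) with UT EV and 634 (575 to 698) with MAPS. Col4a2 stood at 141, 34.8, 157 and 483 CPM. Both genes were lowest in IL-1a/TNFa/C1q EV, where they rested on 17 and 9 UMIs. Fn1 had 669 CPM (607 to 735) with IL-4/C1q EV, 402 (329 to 487) with IL-1a/TNFa/C1q EV, 761 (655 to 880) with UT EV and 829 (760 to 902) with MAPS. The intervals of UT EV overlapped those of IL-4/C1q EV and MAPS, and 1 UT EV cell held 90 of the 184 Fn1 UMIs there.

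Among the matricellular genes, Postn stood at 94.4 CPM (72.2 to 121) with IL-4/C1q EV, 38.7 (18.6 to 71.1) with IL-1a/TNFa/C1q EV, 137 (94.0 to 192) with UT EV and 352 (308 to 401) with MAPS. In UT EV, 23 of its 33 UMIs came from 1 cell, and without the top cells the levels were 80.8, 31.3, 45.1 and 309 CPM. Sparc had 5644 CPM (5462 to 5830) with IL-4/C1q EV, 3319 (3101 to 3549) with IL-1a/TNFa/C1q EV, 3240 (3017 to 3475) with UT EV and 6660 (6463 to 6861) with MAPS. IL-4/C1q EV lay nearer to MAPS than to the other EV libraries in this gene. Tnc had 2, 0, 3 and 12 UMIs in fibroblast-like cells, too few to order the libraries, and 0 UMIs among the 258513 of IL-1a/TNFa/C1q EV allow up to 11.6 CPM (3 counts). Lox, the crosslinking enzyme, had 172 CPM (141 to 207) with IL-4/C1q EV, 61.9 (35.4 to 101) with IL-1a/TNFa/C1q EV, 104 (66.9 to 153) with UT EV and 181 (150 to 216) with MAPS. IL-1a/TNFa/C1q EV was the lowest by level, and the interval of UT EV reached those of all 3 others.

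**Figure D3:**
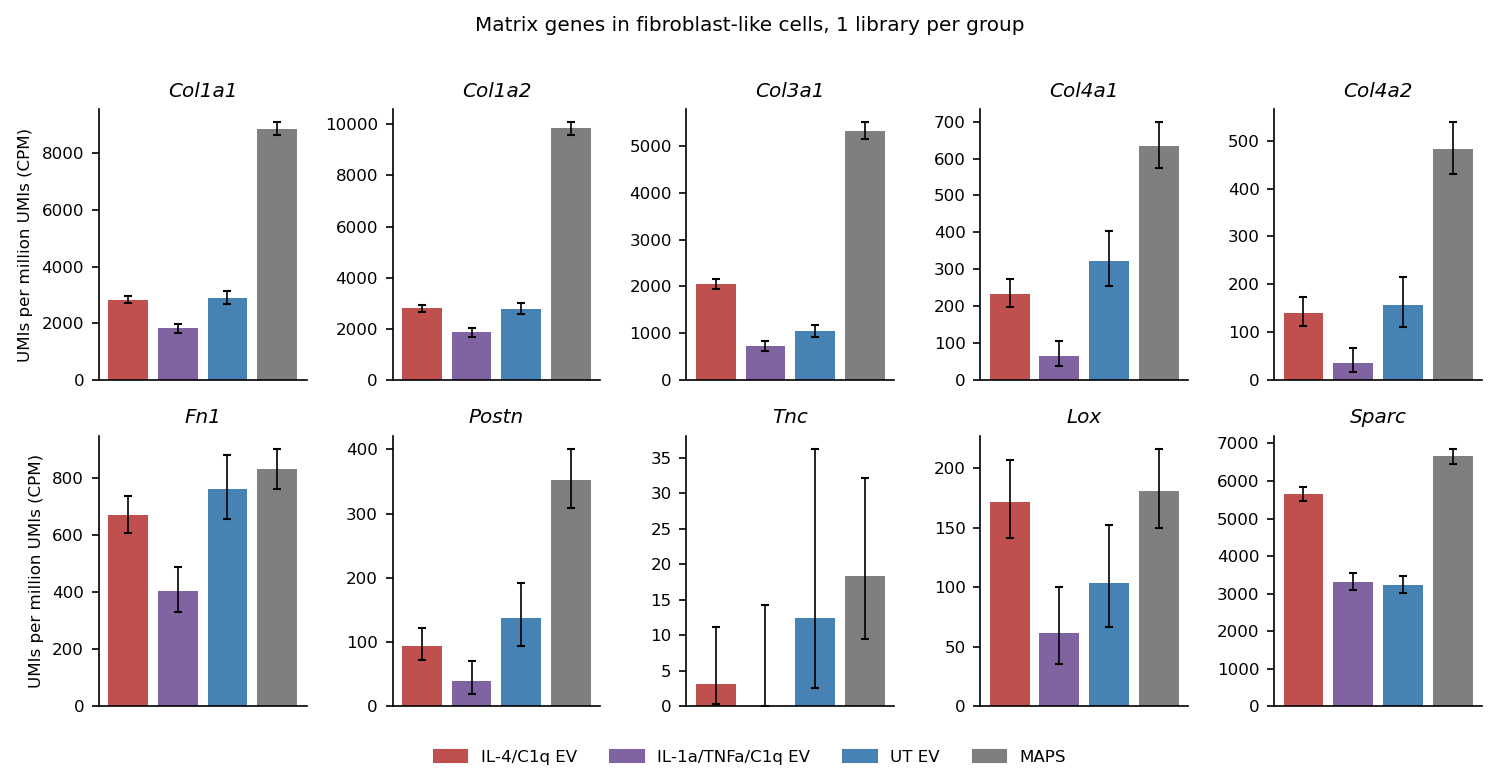
Level of each gene in fibroblast-like cells in CPM (y axis from 0, scaled per gene) for IL-4/C1q EV, IL-1a/TNFa/C1q EV, UT EV and MAPS, with exact Poisson 95% intervals. By level MAPS is highest in every panel, although its interval overlaps that of UT EV for Fn1, those of IL-4/C1q EV and UT EV for Lox and those of all 3 EV libraries for Tnc. The Tnc counts are too few to order the libraries, and of the other genes IL-1a/TNFa/C1q EV is lowest by level for all but Sparc.

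Between IL-4/C1q EV and UT EV, fibroblast-like cells differed by 1.5-fold in Col3a1, Sparc and Lox, while the type I collagen genes were within that limit. Of the 9 genes with at least 50 UMIs over both libraries, 3 were higher by 1.5-fold in IL-4/C1q EV, where 12.4% of all 2452 genes measured were, and 0 were lower, against 6.69% of all genes. Col3a1 was 1.96-fold UT EV (1.71 to 2.25), Sparc 1.74-fold (1.61 to 1.88) and Lox 1.66-fold (1.07 to 2.68). Col1a1 was at 0.973-fold (0.891 to 1.06) and Col1a2 at 1.01-fold (0.921 to 1.10). Weighing every cell equally gave 1.19-fold for Col1a1 and 1.28-fold for Col1a2, and leaving out the top cell of each library gave 1.22-fold and 1.27-fold. Col4a1 was at 0.719-fold (0.543 to 0.958), and at 1.04-fold with equal weights or with cells thinned to 1000 UMIs. Fn1 at 0.878-fold (0.737 to 1.05) and Postn at 0.691-fold (0.445 to 1.09) became 1.5-fold and 1.79-fold without the top cells. The median log2 ratio of the genes was −0.04, beside 0.07 over all genes.

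IL-1a/TNFa/C1q EV had lower collagen levels than UT EV in fibroblast-like cells. Of 6 genes measured, 3 were lower by 1.5-fold (8.74% of all 1464 genes were) and 0 were higher (9.49%), with a median log2 ratio of −0.63 beside 0.09 over all genes. Col1a1 was at 0.625-fold (0.555 to 0.704), Col4a1 at 0.204-fold (0.113 to 0.347) and Fn1 at 0.528-fold (0.411 to 0.676). Col1a2 at 0.670-fold (0.594 to 0.754) and Col3a1 at 0.687-fold (0.566 to 0.834) lay just inside the 1.5-fold limit, and Sparc was at 1.02-fold (0.929 to 1.13). With every cell weighted equally, Col1a1 was at 0.85-fold, Col1a2 at 1.0-fold (as after thinning), Fn1 at 1.07-fold and Col4a1 at 0.35-fold, so the Col4a1 difference was the one of these that stayed past 1.5-fold. Col4a2, Postn and Lox, below the 50 UMIs, had 9 against 38, 10 against 33 and 16 against 25 UMIs.

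IL-4/C1q EV and IL-1a/TNFa/C1q EV, whose vesicles came from astrocytes under different cytokines, stood furthest apart among the EV libraries in these genes. All 9 genes measured were higher by 1.5-fold in the fibroblast-like cells of IL-4/C1q EV, where 14.8% of all 2481 genes were, and 0 were lower (6.61%). Their median log2 ratio was 1.29 beside 0.03 over all genes. The fibrillar genes were at 1.56-fold for Col1a1 (1.40 to 1.73), 1.5-fold, at the limit, for Col1a2 (1.36 to 1.67) and 2.85-fold for Col3a1 (2.44 to 3.34). Col4a1 was at 3.53-fold (2.13 to 6.22), Col4a2 at 4.04-fold (2.04 to 9.13), Lox at 2.78-fold (1.64 to 5.02) and Postn at 2.44-fold (1.24 to 5.34). Fn1 at 1.66-fold (1.34 to 2.08) and Sparc at 1.70-fold (1.58 to 1.83) completed the 9. With every cell weighted equally the ratios ran from 1.28-fold for Col1a2 to 3.37-fold for Col4a2, each still above 1, and 4 of the 9 were past 1.5-fold. This comparison shares a library with each of those against UT EV, so they are not independent.

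UT EV had lower levels of these genes in fibroblast-like cells than MAPS. Of 9 genes measured, 8 were lower by 1.5-fold in UT EV, where 47.5% of all 3178 genes were, and 0 were higher (24.8%). The median log2 ratio over all genes was itself −0.48 in this pair, against −1.37 for the 9 genes. Col1a1 was at 0.327-fold (0.302 to 0.354), Col1a2 at 0.282-fold (0.260 to 0.305), Col3a1 at 0.196-fold (0.172 to 0.223) and Postn at 0.388-fold (0.261 to 0.560). Fn1, at 0.919-fold (0.773 to 1.09), was the one not past 1.5-fold. Scaling by TMM factors, which centre the ratios, gave 0.48-fold for Col1a1 and left 5 genes past the limit. The median depth of these cells was 2315.5 UMIs in UT EV and 9109 in MAPS, and the part of depth in the ratios was not tested.

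**Figure D4:**
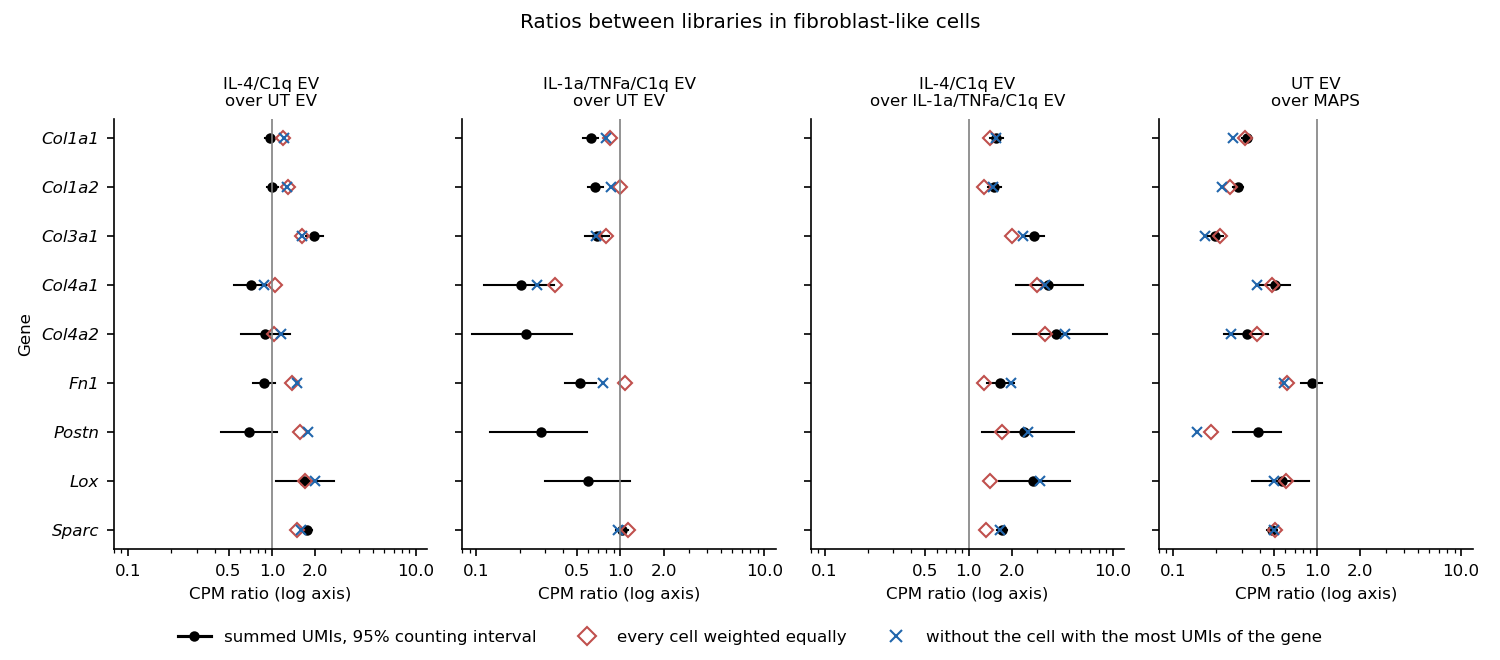
Ratios of CPM between libraries in fibroblast-like cells (log axis) for 9 genes and 4 comparisons, with the summed UMIs and their 95% counting interval as black points, equal cell weights as open diamonds and the top cell left out as crosses. Ratios of IL-4/C1q EV over IL-1a/TNFa/C1q EV lie above 1 under all 3 summaries, whereas Col1a1, Col4a1, Col4a2, Fn1 and Postn of IL-4/C1q EV over UT EV lie on different sides of 1.

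Markers of other cells in the fibroblast-like class moved with some of these values. Smooth muscle markers summed to 936 CPM in IL-4/C1q EV, 418 in IL-1a/TNFa/C1q EV, 1006 in UT EV and 88.9 in MAPS, with all 6 detected in IL-4/C1q EV, 4 in IL-1a/TNFa/C1q EV, 5 in UT EV and 3 in MAPS. Myh11, the smooth muscle myosin, was at 0 in all but IL-4/C1q EV, while Acta2, the smooth muscle actin that myofibroblasts also use, stood at 199.6 CPM in IL-4/C1q EV, 3.87 in IL-1a/TNFa/C1q EV, 261 in UT EV and 13.8 in MAPS. Pericyte markers summed to 850, 704, 1080 and 835 CPM, with 6, 6, 5 and 6 of 8 detected, and their defining marker Higd1b was at 0 in all but IL-1a/TNFa/C1q EV. Endothelial markers summed to 130, 155, 211 and 159 CPM, with 7, 5, 7 and 8 of 8 detected and 0 to 4 UMIs of Pecam1. Astrocyte markers summed to 766 CPM in IL-4/C1q EV, 464 in IL-1a/TNFa/C1q EV, 646 in UT EV and 1152 in MAPS, with 7, 6, 7 and 7 of 7 detected and Aqp4 at 0 in IL-1a/TNFa/C1q EV. They were lowest in IL-1a/TNFa/C1q EV and highest in MAPS, as Col1a1 was. Microglia markers summed to 455, 573, 281 and 1059 CPM (8, 7, 4 and 8 of 8 detected), monocyte/macrophage markers to 339, 480, 178 and 305 CPM (5, 5, 3 and 5 of 8) and oligodendrocyte markers to 518, 325, 352 and 501 CPM (7, 7, 6 and 7 of 7). Their part in the ratios was not tested.

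Other genes of the matrix pathway, in 5 lists chosen with earlier results known, were read in the same cells. Of the 24 genes of other fibrillar and scar matrix, 17 were measured between IL-4/C1q EV and UT EV, with 2 higher and 10 lower by 1.5-fold and a median log2 ratio of −0.65. Over all genes of this pair 12.4% were higher and 6.69% lower, which is the background of each list here. Thbs1 (thrombospondin-1, a matricellular protein) stood at 58.8 CPM in IL-4/C1q EV and 290 in UT EV, Spp1 (osteopontin) at 1206 and 2532, and Col12a1, a fibril-associated collagen, at 150 and 314. So by summed UMIs these genes were mostly lower in IL-4/C1q EV, while Col3a1 was higher. For the list genes no value without the top cells is given, and leaving those cells out put Fn1 and Postn of this pair above 1. Of 9 basement membrane genes measured, 1 was higher and 3 lower, with Col18a1 at 238 CPM in IL-4/C1q EV and 132 in UT EV. None of 8 collagen-processing genes passed 1.5-fold, and of 7 matrix receptors 2 were higher and 1, Sdc4, was lower at 0.466-fold. Of 7 genes of the myofibroblast state 0 were higher and 1 lower.

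Between IL-1a/TNFa/C1q EV and UT EV, where 9.49% of all genes were higher and 8.74% lower, fewer genes of the lists could be measured. Of 10 other scar matrix genes measured, 0 were higher and 7 lower, with Fmod (fibromodulin, which binds collagen fibrils) at 42.6 CPM with IL-1a/TNFa/C1q EV and 190 with UT EV, and Col5a2 at 101 and 248. Of 5 genes of the myofibroblast state, 4 were lower, with Tagln (transgelin, an actin-binding protein) at 209 and 526 CPM and Acta2 at 1 and 63 UMIs. Both of these are also among the smooth muscle markers above. Of 2 basement membrane genes 2 were lower, of 4 matrix receptors 0 were higher and 2 lower, and of 5 collagen-processing genes 1 was higher and 1 lower. IL-4/C1q EV over IL-1a/TNFa/C1q EV, where 14.8% of all genes were higher and 6.61% lower, had 6 of 9 basement membrane genes and 6 of 7 myofibroblast genes higher and 0 lower, with Nid1 (nidogen-1) at 224 and 92.8 CPM and Lama4 (a laminin chain) at 77.4 and 30.9. In this pair 7 of 16 other scar matrix genes were higher and 1 lower, 3 of 9 collagen-processing genes were higher and 0 lower, and 1 of 7 receptors was higher and 0 lower. Serpinh1, the collagen chaperone HSP47, stood at 522 CPM in IL-4/C1q EV and 313 in IL-1a/TNFa/C1q EV.

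Against MAPS, UT EV had 14 of 14 basement membrane genes and 11 of 12 collagen-processing genes lower by 1.5-fold, where 47.5% of all genes were lower and 24.8% higher. Of 22 other scar matrix genes 2 were higher and 15 lower, and of 9 receptors 0 were higher and 7 lower. Loxl1, a relative of Lox, stood at 7 UMIs in UT EV and 328 in MAPS, and Serpinh1 at 389 and 1425 CPM. Eln, the elastin gene, had 4 UMIs in UT EV and 652 in MAPS. The myofibroblast list differed, with 4 of 6 genes higher and 2 lower in UT EV, among them Tagln at 526 CPM in UT EV and 10.7 in MAPS.

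Vascular cells were the other main source of type IV collagen and, in the EV libraries, of fibronectin. In endothelial-like cells Col4a1 stood at 232 CPM (217 to 248) with IL-4/C1q EV, 170 (155 to 187) with IL-1a/TNFa/C1q EV, 205 (189 to 222) with UT EV and 426 (381 to 475) with MAPS. Here IL-4/C1q EV was above UT EV, at 1.13-fold (1.02 to 1.25), and IL-1a/TNFa/C1q EV below it, at 0.831-fold (0.735 to 0.939). Col4a2 stood at 137, 114, 146 and 362 CPM and Fn1 at 574, 538, 574 and 911 CPM, again with IL-1a/TNFa/C1q EV lowest. Of the 4 genes measured in this class (Col4a1, Col4a2, Fn1 and Sparc), 0 passed 1.5-fold among the EV libraries in either direction. All genes passed in 3.69% (higher) and 4.66% (lower) of cases for IL-4/C1q EV over UT EV, in 1.82% and 7.84% for IL-1a/TNFa/C1q EV over UT EV, and in 7.84% and 3.64% for IL-4/C1q EV over IL-1a/TNFa/C1q EV. In the collagen-processing list, P4ha1, a prolyl hydroxylase subunit needed for stable collagen, stood at 79.3 CPM in IL-4/C1q EV and 39.8 in UT EV, and Serpinh1 at 155 and 88.9 CPM. Both were named by the size of their ratio, and the counts of this list past 1.5-fold are not given for this class.

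UT EV endothelial-like cells had 3 of the 4 genes lower than MAPS by 1.5-fold, where 50.4% of all genes were, and 0 higher, where 17.8% were. Col4a1 was at 0.482-fold (0.421 to 0.552) and Col4a2 at 0.403-fold (0.346 to 0.469), beside a median log2 ratio of −0.60 over all genes. With TMM factors Col4a1 was at 0.78-fold. Fn1 at 0.630-fold (0.577 to 0.689) and Sparc at 0.710-fold (0.674 to 0.748) turned to 1.03-fold and 1.15-fold under that scaling. Of the endothelial-like cells, 1264 of 1265 in UT EV and 40 of 149 in MAPS lay in the cluster of the EV libraries, and the other 109 of MAPS formed a cluster of their own.

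A cluster led by Myh11 and Higd1b, markers of the smooth muscle cells and pericytes that wrap vessels, was left without a class name. It held 152 cells of IL-4/C1q EV, 117 of IL-1a/TNFa/C1q EV, 175 of UT EV and 32 of MAPS. Col4a1 stood there at 477 CPM (409 to 554) with IL-4/C1q EV, 194 (154 to 242) with IL-1a/TNFa/C1q EV, 304 (256 to 359) with UT EV and 683 (577 to 803) with MAPS. The 4 intervals did not overlap. IL-4/C1q EV over UT EV had 2 of 5 genes higher by 1.5-fold (5.73% of all genes) and 0 lower (4.96%), with Col4a1 at 1.57-fold (1.25 to 1.97) and Col4a2 at 1.65-fold (1.18 to 2.32). A single cell held 35 of the 174 Col4a1 UMIs of IL-4/C1q EV, and the Col4a1 ratio was 1.34-fold without the top cells and 1.15-fold with equal weights. IL-1a/TNFa/C1q EV over UT EV had 0 higher (4.84%) and 2 lower (8.76%), Col4a1 at 0.639-fold (0.478 to 0.847) and Col1a2 at 0.471-fold (0.265 to 0.810). The Col1a2 ratio was 1.13-fold with cells thinned to 1000 UMIs.

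IL-4/C1q EV over IL-1a/TNFa/C1q EV had 3 of 5 genes higher in the Myh11 and Higd1b cluster (11.4% of all genes) and 0 lower (7.21%), with Col4a1 at 2.46-fold (1.87 to 3.25) and Col4a2 at 1.61-fold (1.14 to 2.28). UT EV over MAPS had 0 higher (34.8%) and 4 lower (34.7%). A finer clustering gave pericyte-like cells (46, 60, 55 and 10 cells in IL-4/C1q EV, IL-1a/TNFa/C1q EV, UT EV and MAPS) and smooth-muscle-like cells (109, 57, 120 and 22). Col4a1 then stood at 479, 185, 242 and 661 CPM in pericyte-like cells and at 468, 211, 396 and 718 CPM in smooth-muscle-like cells. Both were lowest in IL-1a/TNFa/C1q EV. Col4a2 stood at 279, 136, 146 and 486 CPM in pericyte-like cells. In smooth-muscle-like cells Col4a2 stood at 160, 162, 134 and 499 CPM, and the intervals of the EV libraries overlapped there. Fn1 was concentrated in the pericyte-like cells, with 316, 276, 231 and 562 CPM, against 25.7, 28.1, 10.7 and 85.2 CPM in the smooth-muscle-like cells.

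**Figure D5:**
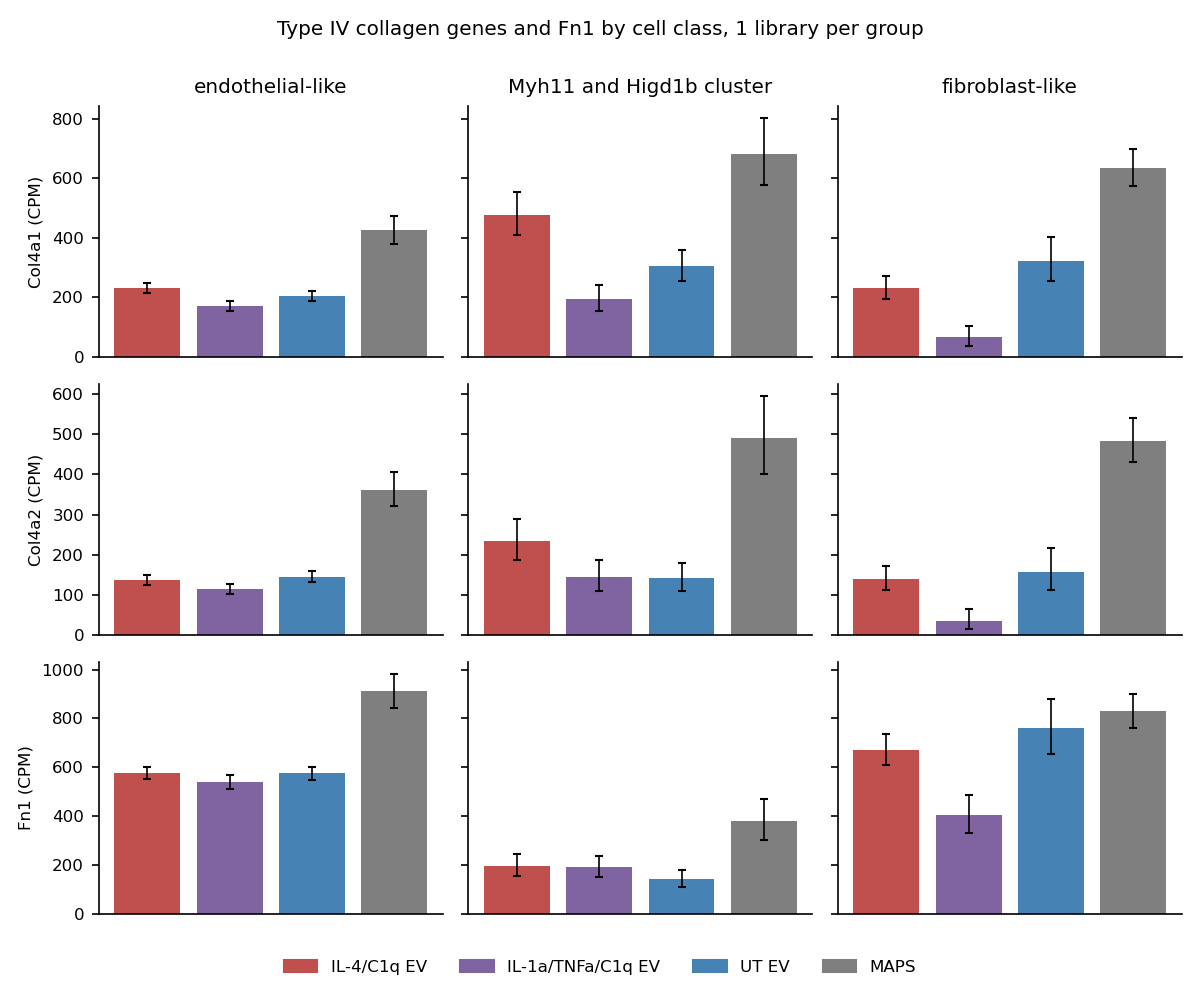
Col4a1, Col4a2 and Fn1 levels (CPM, y axis from 0, shared along each row) in endothelial-like cells, the Myh11 and Higd1b cluster and fibroblast-like cells for the 4 libraries, with exact Poisson 95% intervals. Col4a1 is lowest in IL-1a/TNFa/C1q EV and highest in MAPS in all 3 classes, while IL-4/C1q EV lies above UT EV in the first 2 and below it in fibroblast-like cells.

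Fibronectin transcripts were also found in myeloid cells, and in MAPS most of them lay in microglia-like cells. Monocyte/macrophage-like cells had 65.4 CPM of Fn1 (60.3 to 70.9) with IL-4/C1q EV, 41.2 (37.8 to 44.9) with IL-1a/TNFa/C1q EV, 53.8 (49.3 to 58.6) with UT EV and 68.9 (52.4 to 89.1) with MAPS, the last from 79 cells. IL-4/C1q EV over UT EV was at 1.22-fold (1.08 to 1.37), but at 0.994-fold when called doublets were kept. IL-1a/TNFa/C1q EV over UT EV was at 0.766-fold (0.677 to 0.867), but at 1.24-fold when cells were classed by a marker gate. IL-4/C1q EV over IL-1a/TNFa/C1q EV was at 1.59-fold (1.41 to 1.79). In the macrophage cluster led by Atp6v0d2 and Gpnmb, Fn1 stood at 82.1, 57.9, 60.5 and 104 CPM, and in that led by Saa3 and Apoc4 it stood at 35.8, 26.4 and 46.2 CPM in the 3 EV libraries. The order of IL-4/C1q EV and UT EV thus differed between these clusters.

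In microglia-like cells, as classed here, Fn1 was near background in the EV libraries and above it in MAPS. It stood at 4.52 CPM in IL-4/C1q EV, 4.33 in IL-1a/TNFa/C1q EV, 5.13 in UT EV and 98.3 (95.2 to 101) in MAPS. T cells had 7.02, 3.75, 8.47 and 3.45 CPM, close to the EV microglia-like cells and far below those of MAPS. Cells with an Fn1 UMI were 1.07%, 0.981%, 1.17% and 8.56% of microglia-like cells, and 2.90% in MAPS after thinning to 1000 UMIs. Within MAPS, the cluster of microglia-like cells led by Lpl, Ch25h and Cst7 had 207 CPM of Fn1 (201 to 214) and the cluster led by Slc2a5 and P2ry12 had 3.92 (3.12 to 4.86). Postn had 22.5 CPM in the first and 4.91 CPM in the second of these MAPS clusters, and 1.17, 0.354, 1.57 and 13.1 CPM over all microglia-like cells of IL-4/C1q EV, IL-1a/TNFa/C1q EV, UT EV and MAPS. The microglia-like cells of the EV libraries and of MAPS lay in different clusters. A cluster led by Spp1 and Cst7, with 591 cells of IL-4/C1q EV, 545 of IL-1a/TNFa/C1q EV, 689 of UT EV and 94 of MAPS, was left without a class name for its leading genes and is outside these values. Fn1 stood there at 46.9 CPM (38.1 to 57.1) with IL-4/C1q EV, 32.2 (25.5 to 40.2) with IL-1a/TNFa/C1q EV, 53.0 (44.7 to 62.3) with UT EV and 183 (144 to 228) with MAPS. Postn stood at 9.47, 9.09, 6.57 and 28.8 CPM. Fn1 was thus above the T cell level in the EV libraries too in this cluster, and the size of the contrast with MAPS depends on where such cells are placed.

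Lox and Sparc in microglia-like cells ordered the EV libraries differently from fibroblast-like cells. Lox stood at 2.60 CPM (31 UMIs) in IL-4/C1q EV, 5.21 (59 UMIs) in IL-1a/TNFa/C1q EV, 1.31 (15 UMIs) in UT EV and 3.91 (155 UMIs) in MAPS. T cells had 0 Lox UMIs in the 3 EV libraries and 5 in MAPS. By level the highest library here was IL-1a/TNFa/C1q EV, the lowest in fibroblast-like cells. Its interval (3.97 to 6.73) overlapped that of MAPS (3.32 to 4.58). The ratio of IL-1a/TNFa/C1q EV over UT EV was 4.0-fold (2.24 to 7.58), and ran from 3.13-fold to 13.6-fold over the other settings. The 13.6-fold, with cells thinned to 1000 UMIs, rested on very few UT EV counts. A Lox UMI was then left in 0.0492% of 4065 UT EV cells (0.00596 to 0.178%), against 0.626% of 4792 in IL-1a/TNFa/C1q EV. The ratio of IL-4/C1q EV over IL-1a/TNFa/C1q EV was 0.498-fold (0.312 to 0.782). Sparc stood at 1297 CPM in IL-4/C1q EV, 1308 in IL-1a/TNFa/C1q EV, 1468 in UT EV and 2900 in MAPS, against 64.0, 46.3, 78.4 and 142 in T cells. IL-4/C1q EV was at 0.884-fold UT EV (0.864 to 0.903).

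Tnc was low everywhere. Its level in astrocyte-like cells was 4.37 CPM (5 UMIs) in IL-4/C1q EV, 16.1 (16 UMIs) in IL-1a/TNFa/C1q EV, 8.24 (12 UMIs) in UT EV and 21.0 (166 UMIs) in MAPS. UT EV over MAPS was at 0.393-fold (0.199 to 0.706). The counting intervals of the levels of the 3 EV libraries overlapped. The ratio of IL-4/C1q EV over IL-1a/TNFa/C1q EV was 0.272-fold (0.0779 to 0.777), on 5 and 16 UMIs. The intervals of both ratios over UT EV held 1.

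Summed over whole libraries, as in a bulk sample, IL-4/C1q EV exceeded UT EV in fibrillar collagen: Col1a1 stood at 45.4 and 18.4 CPM, a 2.47-fold ratio (2.27 to 2.69), and Col3a1 at 32.8 and 7.06 CPM, a 4.64-fold ratio (4.1 to 5.28). Fibroblast-like cells contributed 1.49% of the UMIs of IL-4/C1q EV and 0.567% of those of UT EV, a 2.64-fold ratio. In such sums more cells of a type and more RNA per cell cannot be told apart. Within fibroblast-like cells the class sums above placed Col1a1 at 0.973-fold (1.22-fold without the top cells) and Col3a1 at 1.96-fold. IL-1a/TNFa/C1q EV over UT EV was at 0.651-fold for Col1a1 (0.584 to 0.726) and 1.81-fold for Lox (1.31 to 2.54). For Lox the fibroblast-like share of UMIs was 13.9% with IL-1a/TNFa/C1q EV and 44.6% with UT EV, and the microglia-like share 51.3% and 26.8%. UT EV over MAPS was at 0.199-fold for Col1a1 (0.184 to 0.214) but at 1.60-fold for Col4a1 (1.47 to 1.74), while within endothelial-like and fibroblast-like cells Col4a1 was lower in UT EV.

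Likeness of pattern was measured as Pearson's r of log2(CPM + 10) over 75 points, 1 for each class and library with at least 30 cells. These points share libraries and depth, so r is a description. Col1a1 was most like Cpz (0.953), Col12a1 (0.948), Sfrp4 (0.947), Mfap4 (0.946) and Lum (0.945), and among the members most like Col3a1 (0.931) and Col1a2 (0.909), then Lox (0.883) and Postn (0.849). Col4a1 was most like Col4a2 (0.982), and outside the members Uaca (0.967), Arhgap29 (0.947), Itih5 (0.943), Osmr (0.942) and Lama4 (0.931). Fn1 had no partner so near, with Rai14 (0.892) first, then Foxc1 (0.874), Eng (0.867), Ecm1 (0.860) and Edn3 (0.854).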

How the data were processed

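Per the labels' protocols, dissociated cells went onto 10x Chromium 3′ v3 chips. The authors deposited raw UMI counts per gene and barcode, already limited to cells. Per the file headers these counts were written by Cell Ranger 8.0.1, whereas Cell Ranger 7.0.0 stands in the submitters' processing notes, beside build GRCm39, Seurat 4.1.0 and bcl2fastq 5.0.1. Which version made the counts is not settled. No column was left unmapped to a sample (0).

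The cell filter asked for 500 UMIs, 300 genes and no more than 20% mitochondrial UMIs. Doublets were called per library with scrublet in scanpy 1.11.5 and removed (3.63 to 5.23%). Counts were scaled to 10000 per cell, and 3000 variable genes (the 10 members and the matrix lists left out), 40 components and 15 neighbours were used for clustering by the Leiden method at resolution 1 (igraph 0.11.9), which gave 34 clusters. A class name needed at least 3 detected markers. Where another class had more markers than its own among the 10 leading genes, the cluster stayed unnamed. Classes are called after their markers throughout.

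UMIs were summed per library and class and given per 1000000 UMIs of the class (CPM). Intervals are exact Poisson for levels, exact conditional binomial for ratios and Clopper-Pearson for shares, at 95%. A count of 0 was taken to allow 3 counts. Where cells were thinned to 1000 UMIs, cells with fewer were left out. Genes with at least 50 UMIs over both libraries were called measured. The scripts were tested on simulated data. TMM factors (edgeR 4.0.16) and DESeq2 1.42.0 size factors served only as other scalings, in R 4.3.3. Other software was matplotlib 3.10.9, scipy 1.17.1, pandas 2.3.3 and numpy 2.4.6 under Python 3.11.15.

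The members and lists were chosen with earlier results of these data known. All 10 members are named, and of each list at most the 4 genes with the largest ratio in either direction, leaving out markers of the class in question. Lists were collagen processing and crosslinking, other scar matrix, basement membrane, matrix receptors and myofibroblast state. For Col1a1, Col4a1 and Fn1 the 5 most alike genes with at least 200 UMIs are named.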

Additional observations from a re-analysis of the deposited data

Results flagged for a closer look

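In several cases a gene was higher in 1 cell class and lower in another between the same pair of libraries, with both counting intervals clear of 1. The differences were not tested, since each library stands alone, and the quotient of both ratios is given. Col4a1 in IL-4/C1q EV over UT EV was at 1.13-fold in endothelial-like and 0.719-fold in fibroblast-like cells, a quotient of 1.57, and at 1.57-fold in the Myh11 and Higd1b cluster, a quotient of 2.18. The fibroblast-like ratio was 1.04-fold with cells thinned or weighted equally, so the opposite sides were lost there. In the same pair, Sparc was at 1.74-fold in fibroblast-like cells and below 1 in microglia-like cells, monocyte/macrophage-like cells and the Myh11 and Higd1b cluster, with quotients of 1.97, 1.98 and 2.09. With called doublets kept, the monocyte/macrophage-like ratio was 1.24-fold.

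In IL-4/C1q EV over IL-1a/TNFa/C1q EV, Lox was at 2.78-fold in fibroblast-like and 0.498-fold in microglia-like cells, a quotient of 5.57. Sparc in this pair was at 1.70-fold in fibroblast-like cells, and the quotient was 1.77 against endothelial-like cells and 2.08 against monocyte/macrophage-like cells. For astrocyte-like against monocyte/macrophage-like cells it was 1.52. With called doublets kept, the monocyte/macrophage-like ratio in this pair was 1.32-fold, and the endothelial-like one was 1.01-fold.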

How the results depend on the processing

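No paired analysis was possible because each group has 1 library. Alternatives chosen after seeing the data were equal cell weights, leaving out the cell with the most UMIs of the gene in each library, and the counts of genes past 1.5-fold under each setting. Causes were not tested. Beside the values below, 156 of the main ratios and counts moved by less than their interval or 1.5 times, as did 758 of the other values, while 180 moved further.

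Fibroblast-like Col1a1 over UT EV for IL-4/C1q EV (0.97-fold) was 0.86 with a marker gate, 1.19 with equal weights and 1.22 without the top cell. For IL-1a/TNFa/C1q EV (0.63-fold) these were 0.54, 0.85 and 0.79. IL-4/C1q EV over IL-1a/TNFa/C1q EV (1.56-fold) was 1.40 with equal weights. UT EV over MAPS (0.33-fold) was 0.49 with the gate, 0.41 thinned, 0.48 with TMM, 0.45 with DESeq2 factors and 0.26 without the top cell. Endothelial-like Col4a1 of UT EV over MAPS (0.48-fold) was 0.78 with either scaling. Genes lower in IL-4/C1q EV than UT EV (0) were 1 with a minimum of 1 UMI, a floor of 1500 UMIs, the gate, TMM or DESeq2 factors. Genes lower in IL-1a/TNFa/C1q EV than UT EV (3) were 6 with a minimum of 1 UMI, 5 with doublets kept, resolution 2 or the gate, and 1 with equal weights or without the top cell. Genes higher in IL-4/C1q EV than IL-1a/TNFa/C1q EV (9) were 4 with equal weights, and genes lower in UT EV than MAPS (8) were 5 with TMM or DESeq2 factors.

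Among ratios whose counting interval excluded 1, direction turned in these cases. In fibroblast-like cells, Col4a1 of IL-4/C1q EV over UT EV was 1.04 thinned or with equal weights, and of IL-1a/TNFa/C1q EV over UT EV Col1a2 was 1.0 under the same settings and Fn1 was 1.07 with equal weights. In endothelial-like cells Sparc of IL-4/C1q EV over IL-1a/TNFa/C1q EV was 1.01 with doublets kept and 1.04 thinned, and of UT EV over MAPS Fn1 was 1.03 with TMM and 1.02 with DESeq2 factors, and Sparc 1.15 and 1.14. In monocyte/macrophage-like cells with doublets kept, Fn1 of IL-4/C1q EV over UT EV was 0.994, and Sparc was 1.24 for IL-4/C1q EV and 0.942 for IL-1a/TNFa/C1q EV over UT EV, 1.32 for IL-4/C1q EV over IL-1a/TNFa/C1q EV and 1.54 for UT EV over MAPS. With no gene left out of clustering, Sparc there was 0.973 for IL-1a/TNFa/C1q EV over UT EV and 1.05 for UT EV over MAPS, where TMM or DESeq2 factors gave 1.30. Fn1 there for IL-1a/TNFa/C1q EV over UT EV was 1.24 with the gate. Microglia-like Sparc of IL-1a/TNFa/C1q EV over UT EV was 1.0 with DESeq2 factors. Astrocyte-like Sparc was 1.05 for IL-1a/TNFa/C1q EV over UT EV with equal weights, and 1.01 with TMM and 1.02 with DESeq2 factors for UT EV over MAPS, where Col4a2 was 1.19 with equal weights. Col1a2 of IL-1a/TNFa/C1q EV over UT EV in the Myh11 and Higd1b cluster was 1.13 thinned. Ratios whose interval held 1 also changed side, among them, in fibroblast-like cells of IL-4/C1q EV over UT EV, Col1a1 (up to 1.22), Col4a2 (0.896, up to 1.31), Fn1 (0.878, up to 1.5) and Postn (0.691, up to 1.79), and of UT EV over MAPS Fn1 (0.919, up to 1.34). Tnc, and in IL-1a/TNFa/C1q EV also Col4a2 and Postn, were limited by depth.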

Other observations

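Cells carrying haemoglobin genes (erythroid-like) had 107 CPM of Col4a1 with IL-4/C1q EV, 69.1 with IL-1a/TNFa/C1q EV and 94.6 with UT EV, and 277, 247 and 230 CPM of Fn1. The 10 leading genes of this cluster included Tmem252, Srarp and Car5a, which also led the main endothelial-like cluster, and their part in these levels was not tested. Pearson's r of Col1a1 with Col3a1 over single fibroblast-like cells was 0.73 in IL-4/C1q EV, 0.73 in IL-1a/TNFa/C1q EV, 0.58 in UT EV and 0.82 in MAPS, which describes cells of 1 library that share their depth.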
